A study of Mus musculus with 2 samples.

Results

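The T and NK lymphocytes of these livers were 115 of the 10220 cell barcodes that passed the quality filters, or 1.13% (exact binomial 95% interval 0.930 to 1.35). Each barcode stands for a droplet that should hold 1 cell. The pool ran in 2 lanes of the 10x chip that cannot be told apart in the files, so cells from different lanes may also share a barcode. A barcode had to hold 500 genes or more and 1000 UMIs or more (a UMI marks a molecule, counted once), with under 20% of them mitochondrial. A barcode was taken as a T or NK lymphocyte when at least 3 of 9 genes had a UMI. These were Cd3e, Cd3d and Cd3g, which encode the CD3 chains of the T cell receptor complex, Trbc2, a receptor beta constant gene, Nkg7, a protein of cytotoxic granules, Il2rb, a receptor chain for interleukins 2 and 15, Klrd1, the CD94 receptor, Gzmb, the protease granzyme B, and Xcl1, a chemokine. Barcodes with more than 1 UMI of the B cell genes Cd79a and Cd79b were left out, as were those with 1% or more of their UMIs from the antigen presentation genes H2-Aa, H2-Ab1, H2-Eb1 and Cd74. Of the 127 barcodes with 3 or more of the genes, the first condition removed 1 and the second removed 12. The barcodes were thus chosen by the measured counts of these genes, whose levels are therefore given as a description.

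A T cell recognises antigen through a receptor of alpha and beta or gamma and delta chains, which can only signal together with the CD3 chains. An NK cell has no rearranged receptor and is steered by activating receptors such as NKp46 (encoded by Ncr1) and by inhibitory receptors of the Ly49 (Klra) family. Both kinds of cell kill with granzymes and perforin, and the liver is known to be rich in resident lymphocytes of the sinusoids, many of which carry the chemokine receptor CXCR6.

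The cells came from the livers of 3 female C57BL/6 mice that were injected at 6 to 8 weeks of age and analysed on day 6. All 3 mice received, by rapid high-volume injection into the tail vein, a transposon that carries mVenus and human NRAS under the CAGGS promoter, together with a transposase. In 2 mice the NRAS carried the activating change G12V, and in 1 mouse it carried G12V and the effector loop change D38A, so the control also holds the transgene and no uninjected liver was analysed here. CAGGS is active in many cell types, and the injection delivers DNA mainly to hepatocytes. The described sort kept live, single, mVenus-positive cells, and although a CD45 stain was used, no step that removed CD45-positive cells is described. The cells were pooled after each mouse had been labelled with an antibody that carries a DNA tag (a hashtag).

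The 3 tags are shown because they alone tie a lymphocyte to a mouse. The antibodies bind CD45 and MHC class I, which lymphocytes carry in abundance. Capitals mark the whole tag that was counted, read 5′ to 3′.
hashtag 1: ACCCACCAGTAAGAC
hashtag 2: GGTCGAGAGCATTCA
hashtag 3: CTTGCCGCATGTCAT
The deposited table gives hashtag 1 to the D38A mouse, hashtag 2 to G12V replicate 1 and hashtag 3 to G12V replicate 2. The study's methods instead name hashtag 3 as the D38A mouse and both others as G12V. Values are therefore given per hashtag, and those between groups under both pairings.

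The barcodes matched their name by genes outside the rule. Ptprc, which encodes the leukocyte protein CD45, was detected in 96 of 115 barcodes at 296 CPM (UMIs per 1000000 of all UMIs summed over barcodes, exact Poisson 95% interval 260 to 337). In the 10105 other barcodes it stood at 16.4 CPM, a ratio of 18.1 (15.7 to 20.7). Thy1, a surface protein of T cells, had 93 UMIs in the lymphocytes and 15 in all other barcodes. Defining genes of other blood cells were at or near 0, with no UMI of the B cell gene Ms4a1 or the Kupffer cell gene Clec4f, 16 UMIs over the macrophage list, 2 over the neutrophil list and 1 over the red cell list. The B cell list had 51 UMIs, most of them from Ighm, the immunoglobulin M heavy chain gene, which was detected in 34 of 115 barcodes at 59.5 CPM. Cd79a and Cd79b in that list were limited by the rule.

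The rule genes themselves ranged widely from barcode to barcode. Of the 115 barcodes, Trbc2 was detected in 102, Cd3g in 95, Cd3d in 93, Nkg7 in 78, Cd3e in 66, Il2rb in 60, Xcl1 in 52, Klrd1 in 36 and Gzmb in 33. The chemokine Xcl1 spanned 0 to 81 UMIs with a median of 0, whereas Cd3d spanned 0 to 18 with a median of 3. Xcl1 and Gzmb were thus held by fewer barcodes, some with large amounts. Hepatocyte barcodes had 5% or more of their UMIs from hepatocyte genes and were not taken as lymphocytes. In these, which should lack the rule genes, Cd3d was detected in 0.155% of 3235 and Nkg7 in 0.155%. Their median was 11617 UMIs per barcode against 3352 in the lymphocytes. Another 5 barcodes at that hepatocyte share were taken as lymphocytes, and each held Cd3d, so these low shares are set in part by the rule. At the threshold, 17 barcodes with exactly 3 of the genes were taken, of which 16 held a CD3 gene and 13 held Ptprc, whereas 12 barcodes with exactly 2 were not, of which 9 held a CD3 gene and 7 held Ptprc.

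Not every lymphocyte barcode held lymphocyte RNA alone. Alb, the albumin gene of hepatocytes, was detected in all 115, from 1 to 3188 UMIs with a median of 8. A list of 12 hepatocyte genes took a median of 0.842% of a barcode's UMIs but reached 26.2%, and 12 barcodes held over 10000 UMIs. A list of 9 liver endothelial genes reached 1.21%. After these values had been seen, a core was set apart of 76 barcodes with under 1.5% hepatocyte and under 0.3% endothelial UMIs and at most 10000 UMIs. The other 39 barcodes (mixed barcodes) held 66.9% of all lymphocyte UMIs. Levels summed over all 115 barcodes therefore rest largely on these 39, and the values in the core are given beside them. In the core, Ptprc stood at 643 CPM (549 to 747) and Alb at 2019 CPM (1851 to 2199), against 13814 CPM of Alb in all 115.

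**Figure D1:**
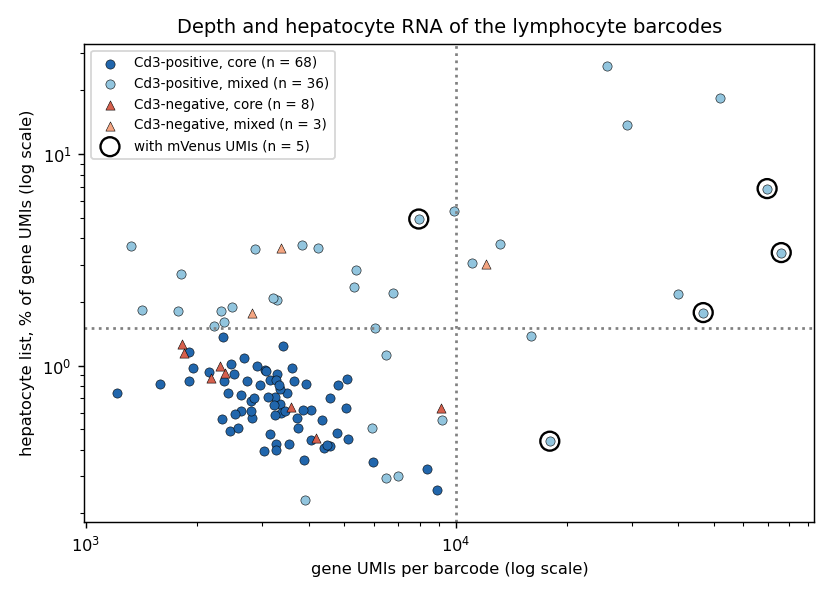
Each point is 1 of the 115 lymphocyte barcodes, with its UMIs on the x axis (log scale) and the percent of them from the 12 hepatocyte genes on the y axis (log scale); circles are Cd3-positive and triangles Cd3-negative (no UMI of a CD3 gene), dark fill marks the core, rings mark the 5 barcodes with mVenus, and dotted lines mark 10000 UMIs and 1.5%. Most barcodes lie near the medians of 3352 UMIs and 0.842%, and a tail runs to 76058 UMIs and 26.2%.

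The transgene was detected in few lymphocytes although the cells were sorted for mVenus. mVenus UMIs were present in 5 of 115 barcodes, 4.35% (1.43 to 9.86), against 13.3% of the other barcodes and 19.6% of the hepatocyte barcodes. These shares come from unlike depth, with a median of 3352 UMIs in lymphocytes and 11617 in hepatocyte barcodes. By summed level the order was the reverse, at 96.2 CPM in lymphocytes, 59.0 CPM in the other barcodes and 40.9 CPM in hepatocyte barcodes. The 5 barcodes held 46, 15, 12, 2 and 1 mVenus UMIs, in totals of 46771, 69641, 76058, 17982 and 7948 UMIs. All 5 lay outside the core and all were Cd3-positive. In the core 0 of 76 barcodes held mVenus, which allows a share of barcodes with a UMI of up to 3.95% by a floor of 3 counts and 4.74% by the exact binomial interval, at a median of 3242 UMIs. Once every lymphocyte was thinned to 1000 UMIs, the share over all 115 was 0.870%, with no thinned value for the other barcodes to set beside it. The Nras row, which also takes reads of the construct, showed the same division. It stood at 65.0 CPM (37.9 to 104) in the core and 1458 CPM (1357 to 1564) in the other 39, against 729 CPM in all barcodes that are not lymphocytes.

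The lymphocytes fell into 104 barcodes with a UMI of Cd3e, Cd3d or Cd3g (Cd3-positive) and 11 without (Cd3-negative). Of the 104, 53 held all 3 CD3 genes, 44 held 2 and 7 held 1. A Cd3-negative barcode had to hold 3 of Trbc2, Nkg7, Il2rb, Klrd1, Gzmb and Xcl1, so its level of these genes is fixed in part by the rule. Most of these are genes of cytotoxic or NK cells, so the rule also favoured other genes that go with them in this class. Median depth was 2820 UMIs in the Cd3-negative and 3359.5 in the Cd3-positive barcodes. Both classes were present in each of the 3 mice, with 3, 2 and 5 Cd3-negative barcodes under hashtags 1, 2 and 3. Since the split and the choice of barcodes used counts of the same cells, differences between the classes are described without a test, and every interval covers counting error only.

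The 11 Cd3-negative barcodes were marked by genes of NK cells. Ncr1, the activating receptor NKp46, was detected in 7 of 11 Cd3-negative barcodes with 0 to 7 UMIs and a median of 3. It was detected in 7 of 104 Cd3-positive barcodes with 0 to 6 UMIs and a median of 0. The level was 612 against 28.2 CPM, a ratio of 21.7 (11.9 to 40.2), and in the core 983 against 59.8 CPM, a ratio of 16.4 (8.32 to 33.9). Fcer1g, an adaptor through which NKp46 signals, had 1 to 11 UMIs in each of the 11 and was detected in 13 of 104, a ratio of 11.0 (7.90 to 15.1). Tyrobp, the adaptor DAP12 of activating Ly49 receptors, was detected in 9 of 11 and 14 of 104, a ratio of 11.4 (8.32 to 15.4). All 3 genes were higher in the Cd3-negative barcodes of every mouse. Ncr1 stood at 306, 820 and 904 CPM under hashtags 1, 2 and 3 in the Cd3-negative barcodes and at 0, 4.45 and 47.2 CPM in the Cd3-positive ones. The classes overlapped for each of these genes, since a small number of Cd3-positive barcodes held as many UMIs as the Cd3-negative ones.

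**Figure D2:**
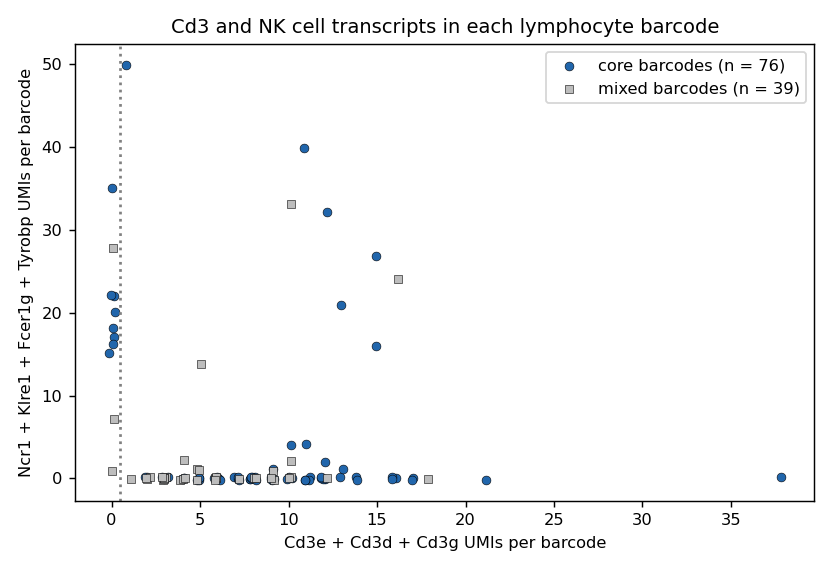
Each point is 1 of the 115 lymphocyte barcodes, with its UMIs of Cd3e, Cd3d and Cd3g on the x axis and its UMIs of Ncr1, Klre1, Fcer1g and Tyrobp on the y axis; blue circles are core and grey squares mixed barcodes, points are shifted slightly to show overlaps, and the dotted line parts barcodes with and without a CD3 UMI. The 11 Cd3-negative barcodes hold 1 to 35 NK UMIs, 85 of the 104 Cd3-positive barcodes hold none, and 9 Cd3-positive barcodes hold 10 or more.

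Receptors of the NK gene complex followed. Klra4, an activating Ly49 receptor, had 11 UMIs in the Cd3-negative and 0 in the Cd3-positive barcodes, at least 59.7-fold higher with a floor of 3 counts over the Cd3-positive class. Klra8, the activating receptor Ly49H, was 40.7-fold higher (14.9 to 128) with 15 against 6 UMIs, and Klri2 was 38-fold higher (8.67 to 228) with 7 against 3. Klre1, a lectin-like receptor that pairs with Klri2, stood at 722 against 68.6 CPM, a ratio of 10.5 (6.58 to 16.6). The Klra genes are near-identical copies, so their counts may be split or lost between them.

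The same barcodes were rich in RNA of secreted chemokines. Ccl3 stood at 875 CPM in the Cd3-negative and 24.2 CPM in the Cd3-positive barcodes, a ratio of 36.2 (20.3 to 67.0). Ccl4 stood at 2777 against 212 CPM, a ratio of 13.1 (10.3 to 16.6), and Ccl5 at 8485 against 1802 CPM, a ratio of 4.71 (4.19 to 5.27). Ccl3, Ccl4 and Ccl5 encode chemokines that attract leukocytes. In the core the ratios were 21.0 (11.3 to 41.2), 8.59 (6.66 to 11.1) and 2.99 (2.60 to 3.42). Also among the 10 largest ratios were Itgax, the integrin CD11c, 32.5-fold higher (6.95 to 201) with 6 against 3 UMIs, and the kinase gene Fes, 12.2-fold higher (1.79 to 72.1) with 3 against 4 UMIs. Of the dendritic cell list, which holds Itgax, 2 of 4 measured genes were higher (Itgax and H2-Eb1), with summed levels of 634 against 480 CPM. Its defining genes Flt3, Xcr1, Clec9a, Cd209a and Siglech had 0 UMIs in the Cd3-negative barcodes. In the core alone, Zfp512 and Trabd entered the list with 7.30-fold (2.03 to 25.4) and 7.10-fold (1.71 to 27.9).

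Of 3321 genes at 50 CPM or more in either class, 900 were at least 2-fold higher in the Cd3-negative barcodes (27.1%) and 402 at least 2-fold lower (12.1%), with a median log2 ratio of 0.36 over all of them. Only 158 of the higher and 246 of the lower genes kept their direction in each of the 3 hashtags. In the core 857 of 3150 were higher (27.2%) and 254 lower (8.06%). Under TMM scaling of the summed counts all log2 ratios shifted by -0.60, and 436 genes were higher and 803 lower, so that 35.2% of the genes apart were higher against 69.1% before. Against these backgrounds the NK cell list stood far to one side, with 12 of its 13 measured genes higher, none lower and a median log2 ratio of 3.4. In the core 10 of 13 were higher, none were lower and the median was 2.46, and under TMM 12 of 14 were higher. No rule gene is in this list, but the rule let Cd3-negative barcodes in mainly through cytotoxic and NK genes. The counts therefore follow in part from the choice of barcodes and describe the class only. Of the 4 NK list genes with the highest level, Gzma (granzyme A) was at 2515 against 738 CPM, Klrk1 (the receptor NKG2D) at 590 against 79.3 CPM and Klre1 as above, whereas Txk, a kinase, was below 2-fold at 219 against 112 CPM. In the core Gzma also fell just short of 2-fold, at 4152 against 2094 CPM. Irf8, a transcription factor, stood at 612 against 32.3 CPM, a ratio of 19.0 (10.6 to 34.2) that was 21.7 (10.5 to 48.3) in the core. Gzma and Irf8 did not keep this direction under hashtag 1, where the 3 Cd3-negative barcodes held 1 UMI of Gzma and none of Irf8, against 40 and 4 UMIs in the 25 Cd3-positive ones.

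Granule and cytokine genes were higher in part. Of 9 measured cytotoxic granule genes 7 were higher and none lower (median log2 ratio 1.77). The rule genes Nkg7 and Gzmb are in this list and Nkg7 is among the 7, so the count is set in part by the choice of barcodes. In the core 4 were higher, namely Cst7, Prf1, Gzmc and Ctsw. Prf1, which encodes perforin, stood at 153 against 25.5 CPM. Gzmb differed little, at 634 against 376 CPM in all and at 874 against 932 CPM in the core, where the ratio was 0.938 (0.588 to 1.43). Among effector cytokines and chemokines 4 of 6 measured genes were higher, namely Ccl3, Ccl4, Ccl5 and the rule gene Xcl1, whose level helped to choose the barcodes. In the core these same 4 of 8 were higher while Ltb (lymphotoxin beta) was lower at 219 against 594 CPM. Of 13 measured genes for T and NK receptor signalling, 4 were higher (Ptprc, Fcer1g, Tyrobp and the adaptor Sh2d2a) and 1 was lower (Lat, an adaptor of the T cell receptor).

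Genes of the T cell receptor were the other side of the contrast, beyond the CD3 genes that define it. Trac, the alpha constant gene, had 0 UMIs in the 11 Cd3-negative barcodes and 164 in 70 of the 104 Cd3-positive ones, at least 3.36-fold lower with a floor of 3 counts over the class, and at least 4.73-fold lower in the core. No UMI of Cd4, Cd8a or Cd8b1 was found in the Cd3-negative class. The 2 beta constant genes were present all the same. Trbc2, a rule gene, was detected in 8 of 11 and Trbc1 in 6 of 11, and Trbc1 stood at 372 against 422 CPM, a ratio of 0.881 (0.507 to 1.43). Trbc1 and Trbc2 are near-identical copies, so reads may be shared between them. Cd247, the zeta chain that NK cells also use, stood at 131 against 57.8 CPM in all and 182 against 150 CPM in the core. Only 2 lymphocytes, with 3659 UMIs together, held no UMI of Cd3e, Cd3d, Cd3g, Trac, Trbc1 or Trbc2.

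The start regions of Cd3d, Cd3e and Ncr1 are printed because these genes separate the classes. They were read from the RefSeq table for GRCm38.p6, the build the authors name mm10, from 250 bases before to 50 bases after the annotated start, in the direction of the gene. Capitals mark matches to the ETS letters AGGAAG or the RUNX letters TGTGGT on either strand.
Cd3d (chr9:44981536-44981835, plus strand): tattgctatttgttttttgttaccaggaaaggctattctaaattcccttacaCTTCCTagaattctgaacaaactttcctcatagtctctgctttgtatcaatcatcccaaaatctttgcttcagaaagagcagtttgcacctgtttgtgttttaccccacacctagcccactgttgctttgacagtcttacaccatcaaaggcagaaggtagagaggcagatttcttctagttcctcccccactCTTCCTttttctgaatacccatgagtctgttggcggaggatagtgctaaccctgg
Cd3e (chr9:45009562-45009861, minus strand): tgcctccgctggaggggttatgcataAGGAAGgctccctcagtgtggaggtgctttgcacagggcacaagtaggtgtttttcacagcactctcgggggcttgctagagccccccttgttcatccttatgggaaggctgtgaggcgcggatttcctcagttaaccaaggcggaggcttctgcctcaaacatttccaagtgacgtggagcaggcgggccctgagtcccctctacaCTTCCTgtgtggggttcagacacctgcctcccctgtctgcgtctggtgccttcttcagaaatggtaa
Ncr1 (chr7:4337465-4337764, plus strand): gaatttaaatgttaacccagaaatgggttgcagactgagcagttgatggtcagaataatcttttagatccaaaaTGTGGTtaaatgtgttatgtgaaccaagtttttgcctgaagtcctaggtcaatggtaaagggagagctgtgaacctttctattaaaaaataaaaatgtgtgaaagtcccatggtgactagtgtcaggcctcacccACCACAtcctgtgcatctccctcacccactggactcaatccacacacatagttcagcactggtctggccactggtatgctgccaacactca
Cd3d and Cd3e lie near each other on chromosome 9. Each of their windows held 2 ETS matches and no RUNX match, and the Ncr1 window, 1 of 2 starts listed for the gene, held 2 RUNX matches and no ETS match, so no match overlapped another. Of 32851 promoter windows of this length, 35.4% held the ETS letters and 16.8% the RUNX letters. Such matches are common and describe the letters only.

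The largest ratios in the other direction, over all 115 barcodes, were not lymphocyte genes. Tm4sf4, Apob, Gdf15, C3, Cpe, Vtn, Igfbp1, Igfbp7 and Azgp1 had 1 to 3 UMIs in the Cd3-negative barcodes and 164 to 907 in the Cd3-positive ones, and Tspan8 had 0 against 513. Apob, C3 and Vtn encode secreted products of hepatocytes. The hepatocyte list moved with them, with 8 of 12 genes lower and summed levels of 16292 against 46406 CPM, while in the core 1 of 10 was lower and the sums were 7575 against 6521 CPM. In the core Tm4sf4 and Igfbp7 turned to log2 ratios of 0.18 and 0.77.

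In the core the genes furthest down in the Cd3-negative barcodes were mostly those of T cells. Cd28, the costimulatory receptor, had 1 against 109 UMIs, a ratio of 12.8 (2.25 to 510) in favour of the Cd3-positive barcodes. Ly6c2, a surface antigen of memory T cells, had 1 against 122 (14.3, 2.52 to 570) and Cxcr6 had 1 against 85 (9.97, 1.74 to 399). Ms4a6b, Thy1, Lat, Ablim1, Lef1 and Ccr7 were among those that followed, with ratios of 8.39 down to 5.98. Lat carries the signal of the T cell receptor, Lef1 is a transcription factor and Ccr7 a chemokine receptor of naive and central memory T cells. With 1 or 2 UMIs in the smaller class, these ratios are known only within wide intervals. Of 8 naive and memory genes 5 were lower in the core and none higher, against 2 of 7 over all barcodes.

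**Figure D3:**
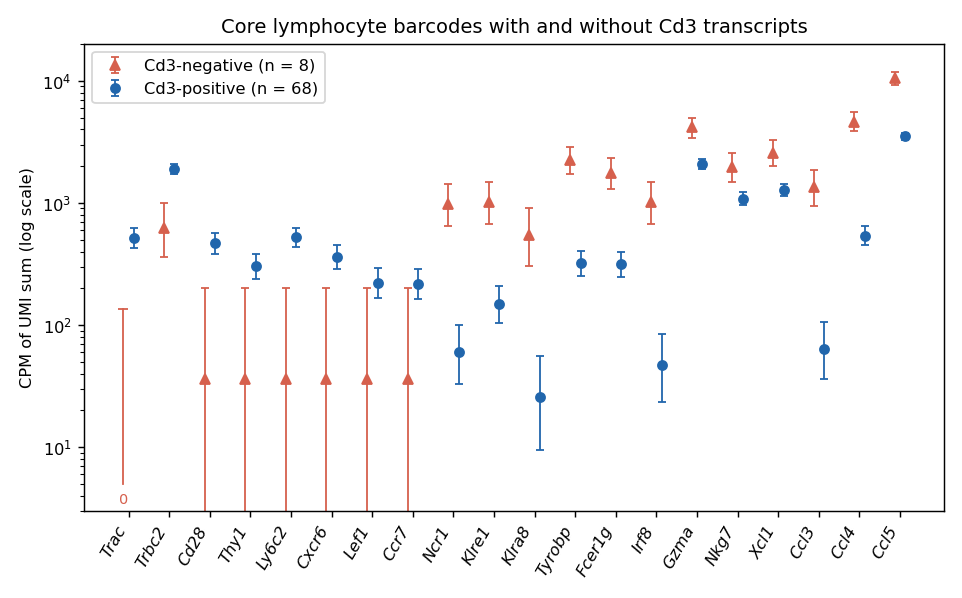
Level of selected genes in CPM (log scale) in the 8 core Cd3-negative and 68 core Cd3-positive barcodes, with exact Poisson 95% intervals of the summed counts. Ncr1 and Ccl3 lie higher in the Cd3-negative barcodes (983 against 59.8 and 1347 against 64.1 CPM); for Trac, with 0 UMIs in the Cd3-negative barcodes, the line ends at the upper bound, and lower ends of intervals from 1 UMI run off the axis.

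Among the Cd3-positive barcodes, 9 held 10 or more UMIs of Ncr1, Klre1, Fcer1g and Tyrobp together, 10 held 1 to 9 and 85 held none. This split was chosen after the values were seen. In the 9, Gzma stood at 12661 CPM in 6 barcodes, up to 227 UMIs in one, against 2515 CPM in the Cd3-negative class and 1 UMI in the 85. Gzmb was detected in 8 of 9 at 4598 CPM and in 12 of 85 at 122 CPM. Their CD3 RNA was uneven: all 9 held Cd3g, at 1687 CPM, but Cd3e was detected in 3 and Cd3d in 5. Trac was detected in 2 of 9 with 2 UMIs, against 59 of 85 with 142 UMIs, and Trdc, the delta constant gene, in 3 of 9 and 6 of 85. Icos and Cd4 were not detected in the 9, and Cd28 had 1 UMI. The presence of a CD3 gene therefore did not divide the barcodes where the NK genes did. Of the 9, 6 lay in the core and 2 were hashtag doublets.

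The 104 Cd3-positive barcodes as a whole held different kinds of T cell genes. Trac was detected in 70 of 104, Cd8b1 in 19, Cd8a in 15, Cd4 in 13, Tcrg-C1 in 14, Trdc in 10 and Foxp3 in 1. No barcode held both Cd4 and a CD8 gene, of 13 with Cd4 and 21 with Cd8a or Cd8b1. At these shares of the 104, few barcodes would hold both even if the genes were unrelated. Of the 24 with a gamma constant gene (Tcrg-C1, Tcrg-C2 or Tcrg-C4) 4 also held Trdc, 14 held Trac and 15 held Cxcr6. The gamma constant genes are near-copies of each other, and Trdc lies within the alpha locus. At a median of 3359.5 UMIs a barcode a missing gene is often a missed one, so these counts may miss barcodes that hold the RNA. Il17a and Gzmk had no UMI.

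The 68 core Cd3-positive barcodes were divided by Cxcr6 and by the pair Ccr7 and Lef1. Cxcr6 alone was detected in 21, Ccr7 or Lef1 without Cxcr6 in 22, both in 8 and neither in 17. At such shares most barcodes would lack 1 or both markers even if the markers were unrelated. Cxcr6 and Ccr7 met in 1 of all 104 Cd3-positive barcodes, of 38 and 28. The division was chosen after the values were seen and is described for other genes. S1pr1, the receptor for exit from tissue, was detected in 14 of the 22 Ccr7 or Lef1 barcodes and 0 of the 21 Cxcr6 barcodes. Dapl1 was detected in 8 and 0. Klf2, a transcription factor that drives S1pr1, was detected in 20 and 6, at 2111 CPM (1780 to 2485) against 205 CPM (117 to 332). Tcf7, a transcription factor of naive and memory T cells, was detected in 14 and 4.

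Effector genes were detected in more of the Cxcr6 than of the Ccr7 or Lef1 barcodes. Icos, a costimulatory receptor, was detected in 15 of 21 Cxcr6 barcodes and 5 of 22 Ccr7 or Lef1 barcodes. Ccl5 was detected in 15 and 3, at 4770 CPM (4298 to 5279) against 1334 CPM (1074 to 1638), and Xcl1 in 14 and 2. The Ccl5 levels rested on few barcodes, since 1 Cxcr6 barcode held 217 of 373 UMIs and 1 Ccr7 or Lef1 barcode 53 of 91. The former was among the 9 with 10 or more NK UMIs. Gzmb, Ifng (interferon gamma), Il4 (interleukin 4) and Ccr2 were detected in 7, 7, 6 and 9 Cxcr6 barcodes. None of the 22 Ccr7 or Lef1 barcodes without Cxcr6 held them, but the 8 barcodes with both markers did, in 4, 3, 4 and 3. Effector genes were not particular to the Cxcr6 barcodes. The 17 barcodes with neither marker held Xcl1 at 4180 against 831 CPM in the Cxcr6 barcodes, Gzmb at 2364 against 908 CPM and Ifng at 664 against 524 CPM. These levels also rested on the 9 barcodes with NK UMIs, for Gzmb almost entirely among the 17. Among the 17, members of the 9 held 81, 23 and 16 of 214 Xcl1 UMIs. The same members held 43, 31 and 36 of 121 Gzmb UMIs, so the Gzmb level says little about the rest of the 17. Among the Cxcr6 barcodes, members of the 9 held 27 and 26 of 71 Gzmb UMIs. Icos was detected in 3 of those 17. The alpha and beta constant genes did not separate in this way, with Trac in 13 and 12 and Trbc2 in 19 and 22. The gamma constant genes did, with Tcrg-C1 in 8 and 1, Tcrg-C2 in 7 and 0 and Tcrg-C4 in 6 and 0. Cd3g stood at 1509 against 689 CPM, whereas Cd3d was at 1292 against 1275 CPM. CD8 and CD4 did so in part, since Cd8b1 was detected in 1 Cxcr6 and 8 Ccr7 or Lef1 barcodes and Cd4 in 0 and 5. Of the 8 barcodes with both markers, 4 held Cd8b1 and 2 held Cd4. The Cxcr6 barcodes numbered 7, 3 and 11 under hashtags 1, 2 and 3, and the Ccr7 or Lef1 barcodes 4, 8 and 9.

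**Figure D4:**
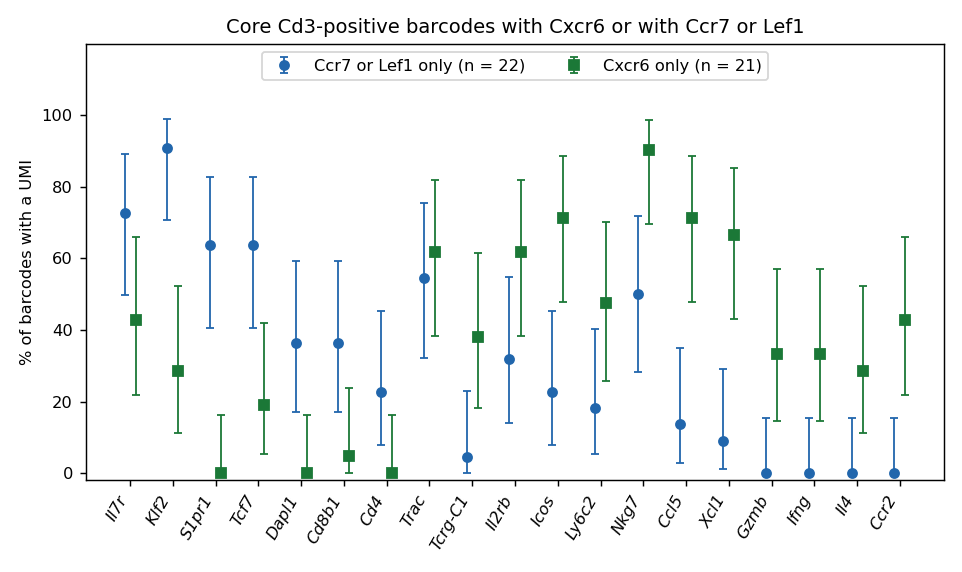
Percent of barcodes with a UMI of each gene, with exact binomial 95% intervals, in core Cd3-positive barcodes with Cxcr6 only (n = 21) and with Ccr7 or Lef1 only (n = 22). S1pr1 is at 63.6% of the Ccr7 or Lef1 barcodes and at 0% of the Cxcr6 barcodes, and Icos and Ccl5 are at 71.4% of the Cxcr6 barcodes.

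Clustering of the 115 barcodes came closer to these lines at a finer resolution. At a Leiden resolution of 0.5 there were 3 clusters of 58, 35 and 22 barcodes, which stayed unnamed because their leading genes mixed lymphocyte and hepatocyte genes. At a resolution of 1.0 there were 7. A cluster of 34 was led by Ly6a and held Cxcr6, Icos and Il4 among its top 10 genes, and a cluster of 21 was led by Ccr7, with Dapl1, S1pr1 and Lef1. A cluster of 16, led by Gzma and Ccl4 with Ncr1 and Klre1, held 8 Cd3-negative and 8 Cd3-positive barcodes, all 16 in the core. Clusters of 14 and 12 were led by Clu and by Fabp1, genes of liver epithelium, at medians of 21794 and 5719.5 UMIs. A cluster of 7 was led by Igfbp7, with the endothelial genes Clec4g and Kdr, and all 7 barcodes carried hashtag 3.

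The hashtag stain was strong on lymphocytes. None of the 115 was called negative, and a floor of 3 counts allows up to 2.61%, whereas 62.0% of the other barcodes were negative. Median hashtag UMIs were 147 against 26. B cell barcodes, of which 1 of 110 was negative, were like the lymphocytes in this. By hashtag, 28, 27 and 50 lymphocytes were called for hashtags 1, 2 and 3, and 10 (8.70%, 4.25 to 15.4) were doublets of different hashtags. Doublets made up 1.52% of the other barcodes, but most of those were negative and so could not be called doublets. In the B cell barcodes the share was 4.55% (1.49 to 10.3). As a share of all barcodes called for the hashtag, lymphocytes made up 3.37% (2.25 to 4.84) of hashtag 1, 1.37% (0.905 to 1.99) of hashtag 2 and 5.08% (3.79 to 6.64) of hashtag 3. The sort and the calls of the other cells set these denominators. Calls by a fixed rule of at least 10 UMIs and 80% of the hashtag UMIs gave 1.57%, 2.61% and 7.43%, so the order of hashtags 1 and 2 depended on the rule, while hashtag 3 was highest in both.

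**Figure D5:**
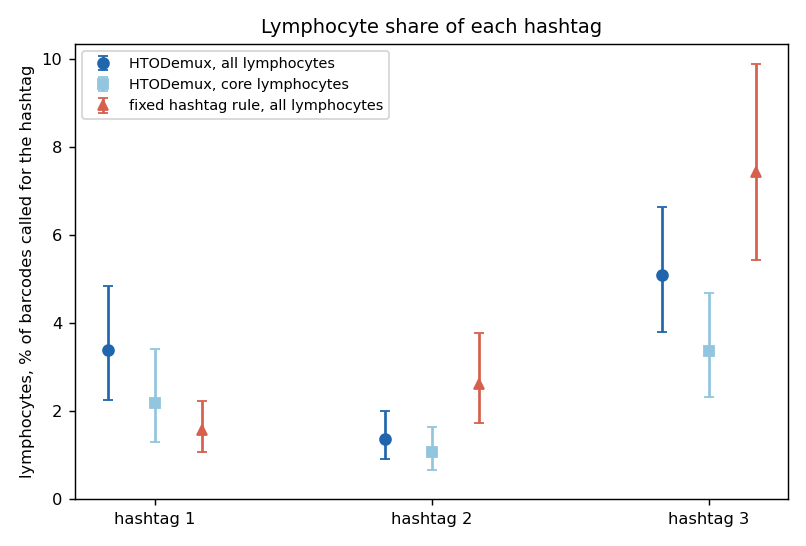
Lymphocytes as a percent of all barcodes called for each hashtag, with exact binomial 95% intervals, for the main calls, the core barcodes and the fixed rule. Hashtag 3 lies highest in each, at 5.08%, 3.35% and 7.43%, and hashtags 1 and 2 change places under the fixed rule.

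Under the deposited pairing the D38A mouse (3.37%) lay between the G12V mice (1.37% and 5.08%), 0.150 percentage points above their mean. By the fixed rule it was the lowest, 1.57% against 2.61% and 7.43%, a difference from the mean of -3.45 points, and in the core the difference was -0.039 points. Under the pairing of the methods it was the highest, at 5.08% against 3.37% and 1.37%, which is 2.70 points above the mean. With 1 D38A mouse these differences could not be tested. The share of Cd3-negative barcodes was 10.7%, 7.41% and 10.0% under hashtags 1, 2 and 3 (3 of 28, 2 of 27 and 5 of 50), with intervals that overlap widely. The D38A mouse differed from the mean of the G12V mice by 2.01 points under the deposited pairing, and by -5.27 points in the core. Under the pairing of the methods the D38A mouse, at 10.0%, lay between the G12V mice at 10.7% and 7.41%.

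Lymphocyte genes showed no common order of the mice. In the core, Trbc2 stood at 1662, 1985 and 1896 CPM under hashtags 1, 2 and 3, Cd3d at 887, 1188 and 1292 CPM and Ptprc at 645, 671 and 595 CPM. These genes varied less than the next ones did. Ccl4 stood at 242, 1440 and 818 CPM, Gzma at 645, 1608 and 2063 CPM and Ccr7 at 113, 433 and 121 CPM. Each of these sums came from few barcodes: Gzma was detected in 2, 3 and 3 of 18, 21 and 33 core barcodes, and Ccl4 in 3, 4 and 6. Cxcr6 stood at 484, 182 and 400 CPM and Cd8b1 at 129, 419 and 130 CPM, where hashtag 2 was the lowest for the first and the highest for the second.

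Of 3540 genes at 50 CPM or more in any mouse, 509 (14.4%) were at least 2-fold apart in the same direction between the D38A mouse and both G12V mice under the deposited pairing. In the same libraries 732 (20.7%) differed by 2-fold or more from one G12V mouse to the other. Under the methods' pairing the numbers were 232 (6.55%) and 1061 (30.0%). In the core, 469 of 3432 (13.7%) and 305 (8.89%) were apart between the groups under the deposited and the methods' pairing. These counts cannot be set against each other directly, since the first needs 2-fold in 2 comparisons and the second in 1. The genes furthest apart under the deposited pairing were Kng2, Igfbp7, Acsl5, Agt and Alcam, higher in the G12V mice, and Cxcl2, Sult2a1, Acat3, Ttpa and Haao, lower in them. Cxcl2, a chemokine, had 28, 0 and 1 UMIs under hashtags 1, 2 and 3, all 28 in 1 barcode, and Kng2, a kininogen gene, had 1, 30 and 24. In the core Kng2 had 0, 1 and 2 UMIs, and each of the other 8 had at most 5 in any mouse. Of these 10 genes none is in a lymphocyte list. Under the methods' pairing Pex2, AI182371, Snap47, Slc7a11 and Cldn3 were higher in the G12V mice and Clec4g, Gpihbp1, Ptprb, Cyp26b1 and Aqp1 lower, with 34 to 99 UMIs under hashtag 3 and at most 2 under the others. Clec4g and Ptprb belong to the liver endothelial list, which as a whole stood at 96.9, 56.9 and 1559 CPM, and in the core at 32.3, 112 and 121 CPM.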

How the data were processed

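The authors aligned the reads of a pooled 10x Genomics library to mm10 with Cell Ranger (version 2.1.1 in the submitters' processing notes) and deposited UMI counts per gene and barcode, without normalization. They deposited hashtag counts from CITE-seq-Count with no mismatch allowed. No other column of sample values was present. The gene library held 13151 barcodes, 13141 of them in both libraries, with no barcode sequence repeated. The 2 lanes of the 10x chip could not be told apart.

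Gene counts of the lymphocyte barcodes were summed per class or hashtag and given as CPM. Intervals are exact Poisson, exact binomial (Clopper-Pearson) or, for ratios, exact for a pair of Poisson sums, at 95%. They cover counting error only. Ratios of 0 counts used a floor of 3. Genes under 50 CPM in every class were not counted, and 2-fold was the threshold. The ratios were tested on simulated data. Hashtags were called with HTODemux (Seurat 5.3.0, quantile 0.99). Lymphocytes called as hashtag doublets were kept, except where mice are compared, and no other doublet caller was run. Clusters were made with scanpy 1.11.5 (2000 genes, 20 components, 15 neighbours). TMM factors came from edgeR 4.0.16.

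The members and gene lists were chosen with earlier results of these data known. Named genes are the 9 rule genes, Ptprc, Alb, mVenus, Nras, the 10 largest ratios in each direction in the same direction in every hashtag holding both classes (leaving out rule genes and mitochondrial, ribosomal and unnamed rows), the 4 highest genes of a list, and the 5 genes furthest apart between mice in each direction. Other genes named in the text, the core, the NK split and the Cxcr6 split were chosen after their values were seen. A few genes that meet these rules are not reported here.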

Additional observations from a re-analysis of the deposited data

How the results depend on the processing

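Genes higher in the Cd3-negative barcodes numbered 900, 436 with TMM factors, and 1802 with a filter of 10 CPM or none. Genes lower numbered 402, 803 with TMM, 112 after thinning to 1000 UMIs, 68 when the Cd3-negative class also lacked Trac, Trbc1 and Trbc2, and 254 in the core. Leaving out 1 hashtag at a time gave 806 to 1179 higher and 338 to 438 lower. In the core, chosen after seeing the data, there were 76 lymphocytes, mVenus was in 0%, and 4 granule genes were higher, 5 naive and memory genes lower and 1 hepatocyte gene lower. Over all 115 barcodes thinned to 1000 UMIs, mVenus was in 0.870%. With the hepatocyte list under 5%, 0 hepatocyte genes were lower and the Ptprc ratio was 22.6. Lymphocyte shares of hashtags 1, 2 and 3 were 1.57%, 2.61% and 7.43% by the fixed rule, and 2.17% and 3.35% for hashtags 1 and 3 in the core. The D38A mouse minus the mean of the G12V mice was 0.150 points for the lymphocyte share, -3.45 by the fixed rule and -0.039 in the core. For the Cd3-negative share it was 2.01 points, 4.01 with at least 4 rule genes, 6.87 by the fixed rule and -5.27 in the core. Between mice, a filter of 10 CPM gave 604 higher, 452 lower and 2262 between the G12V mice, the methods' pairing gave 75 and 157, and there were 424 higher and 368 lower without G12V replicate 1 and 417 and 568 without replicate 2. A resolution of 1.0 gave 7 clusters. Of 457 alternative values for 42 single genes, 5 turned in sign from a main ratio of 2-fold or more. These 5 were Tm4sf4 (0.18) and Igfbp7 (0.77) in the core, and Ly6c2 (0.43), Ms4a6b (0.12) and Lat (1.46) with the class of 2 barcodes without receptor genes, on the log2 scale. Turns from smaller main ratios were not counted, such as that of Gzmb, at 634 against 376 CPM in all and 874 against 932 CPM in the core. The cause of these changes was not tested. No paired analysis of the GEO samples was possible because they are 2 libraries of the same pooled cells. Both classes occurred under each hashtag, but the Cd3 contrast was only checked for direction per hashtag, and no paired test was run. Depth limits the Cd3-negative class, whose 11 barcodes held 45730 UMIs.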

Other observations

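Further gene groups can be described in the lymphocytes. Cell cycle genes were scarce: Stmn1 was detected in 19 of 115 barcodes, Pcna in 10, Birc5 in 5 and Ccnb2 in 3. Stmn1, a microtubule regulator of dividing cells, stood at 364 CPM in the core Cd3-negative and 89.7 CPM in the core Cd3-positive barcodes, but 9 of its 10 UMIs in the former lay in 1 barcode. Cytokine receptors were common, with Ifngr1 and Il2rg each in 61 barcodes and Il7r in 54. Il7r, the receptor for interleukin 7, stood at 146 CPM in the core Cd3-negative and 389 CPM in the core Cd3-positive barcodes. Id2, a transcriptional regulator that innate lymphocytes need, stood at 1056 against 432 CPM in the core, a ratio of 2.45 (1.56 to 3.73).

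Interferon response genes gave a direction that depended on the barcodes used. Isg15 stood at 394 against 106 CPM over all barcodes, a ratio of 3.71 (2.09 to 6.24), and at 36.4 against 150 CPM in the core, a ratio of 0.243 (0.00600 to 1.45). In the core it rested on 1 UMI in the Cd3-negative class. The cause of this difference was not tested.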
